A study of Arabidopsis thaliana with 12 samples.

Results

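Seedlings of Arabidopsis thaliana that lack a working EIN2 gene were compared with the wild type under sugar starvation. EIN2 is a membrane protein that relays the signal of the gas ethylene towards the nucleus. The comparison takes 6 of the 12 mRNA sequencing libraries of the series, chosen by their titles: 3 libraries of the mutant line ein2-5 without glucose and 3 of its parent accession Col-0 without glucose. It runs across all 19522 genes of the table. All seedlings were 4 days old and whole, and had grown at 12 h light and 12 h dark in liquid Murashige and Skoog medium with no glucose. The 2 groups used here then had no glucose for a further 2 h, and the other 6 libraries of both genotypes had 15 mM glucose for 2 h. Since the labels list glucose as the treatment of every sample, the grouping rests on the titles and on the description of the design. The mutant is a single line, and no rescued line is among the samples. Whether replicate libraries came from separately grown cultures is not stated in the labels. The p-values therefore cover only the spread among the libraries at hand, part of which may be technical.

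Ethylene binds receptors in the endoplasmic reticulum, which without the hormone keep the kinase CTR1 active. CTR1 holds EIN2 inactive. Once released, EIN2 leads to the build-up of the transcription factors EIN3 and EIL1, which switch on ethylene response genes. Sugar status is read by other proteins: the kinase SnRK1 promotes catabolic genes when carbon is short, and the kinase TOR promotes ribosome production and cell division when sugar is present.

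The labels were checked first with EIN2 (AT5G03280, on chromosome 5 from 787428 to 793404, RefSeq build TAIR10.1). Its transcript stood at 137, 125 and 125 CPM (reads scaled to 1000000 per library) in the 3 Col-0 libraries without glucose and at 60.2, 43.4 and 56.8 CPM in the 3 ein2-5 libraries. The groups did not overlap, and the level was lower in ein2-5 by a log2 difference of −1.27 ± 0.107 (SE, adjusted p = 1.61e-06, limma). With glucose it was 116, 118 and 105 CPM in Col-0 and 50.3, 49 and 48.5 CPM in ein2-5, so all 6 ein2-5 libraries lay below all 6 Col-0 libraries, as the labels have it. The reads recovered from the table were 13164987 to 17461274 per library without glucose.

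The libraries of the genotypes also differed in makeup, which touches results below. Genes of seed storage proteins and late embryo development summed to 170, 2.18 and 6.82 CPM in Col-0 and to 808, 833 and 1414 CPM in ein2-5, so Col-0 library 1 stood apart from the other two Col-0 libraries. Root and root hair markers summed to 167 to 183 CPM in Col-0 and 267 to 299 CPM in ein2-5, light-harvesting and photosystem genes to 86045 to 93642 against 55656 to 77371 CPM, and cytosolic ribosomal protein genes to 5156 to 5821 against 8426 to 10874 CPM. None of these 4 sums overlapped between the genotypes. The exact two-sided permutation p was 0.1 for each, the smallest that 3 against 3 can give. Chloroplast-encoded genes took 1.06% to 2.46% of reads in Col-0 and 1.67% to 3.94% in ein2-5 (exact p = 0.3), and mitochondrial genes 0.208% to 0.474% and 0.418% to 1.62% (exact p = 0.2). In whole seedlings, fewer cells of a type and less RNA per cell cannot be told apart. The part of makeup in the results that follow was not tested.

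**Figure D1:**
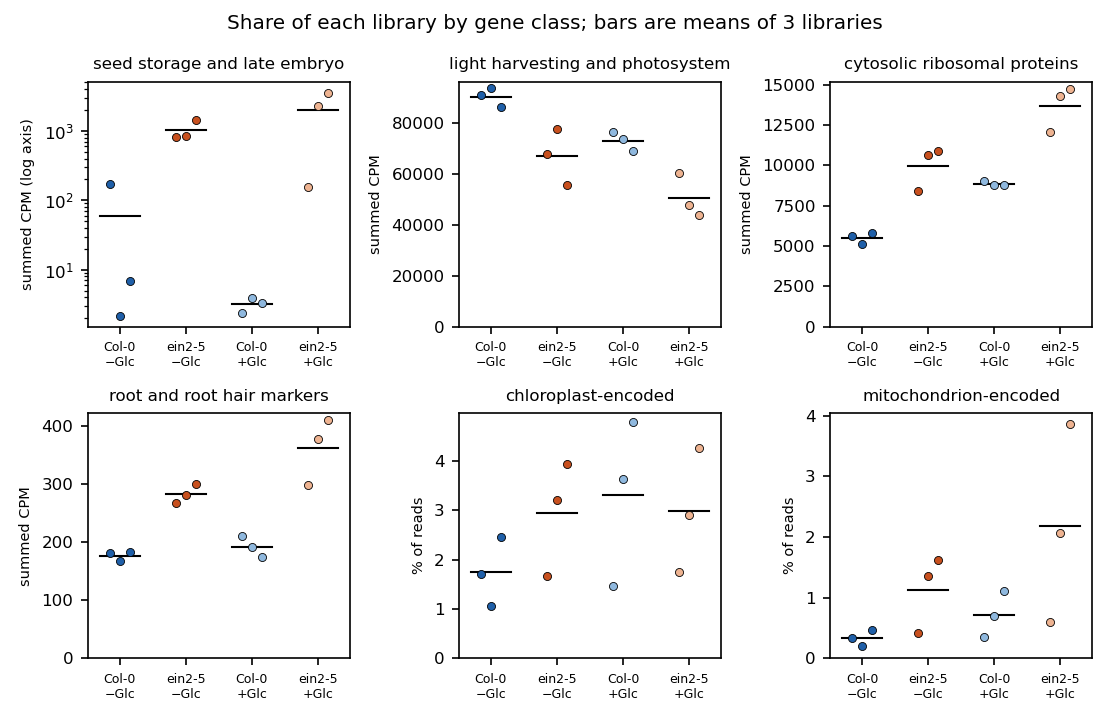
Sum of CPM over the seed, light-harvesting, ribosomal protein and root marker lists, and percent of reads from organelle genomes, for each of the 12 libraries by group. Points are libraries, bars are means of 3, and the seed panel has a log axis. Without glucose, the seed sum ran from 2.18 to 170 CPM in Col-0 and from 808 to 1414 CPM in ein2-5.

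Across all genes, 6887 (35.3%) were higher and 3121 (16.0%) were lower in ein2-5 without glucose at an adjusted p under 0.05 (limma on log2(CPM + 1), Benjamini-Hochberg over 19522 genes). With an absolute log2 difference of at least 1 as well, 1514 (7.76%) were higher and 512 (2.62%) lower. Separately, the levels of the 3 ein2-5 libraries lay wholly above the 3 Col-0 libraries for 41.4% of genes and wholly below for 20.1%. The excess of higher genes depended on scaling. The median of all genes was 0.15 on the log2 scale as deposited and −0.00 after TMM scaling, and 68.8% of the called genes were higher as deposited against 49.1% after TMM. TMM scaling left 5135 higher and 5330 lower genes, with no gene called in opposite directions by the 2 fits. After TMM 26.3% of all genes were higher and 27.3% lower. List counts after TMM are therefore given where they differ.

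**Figure D2:**
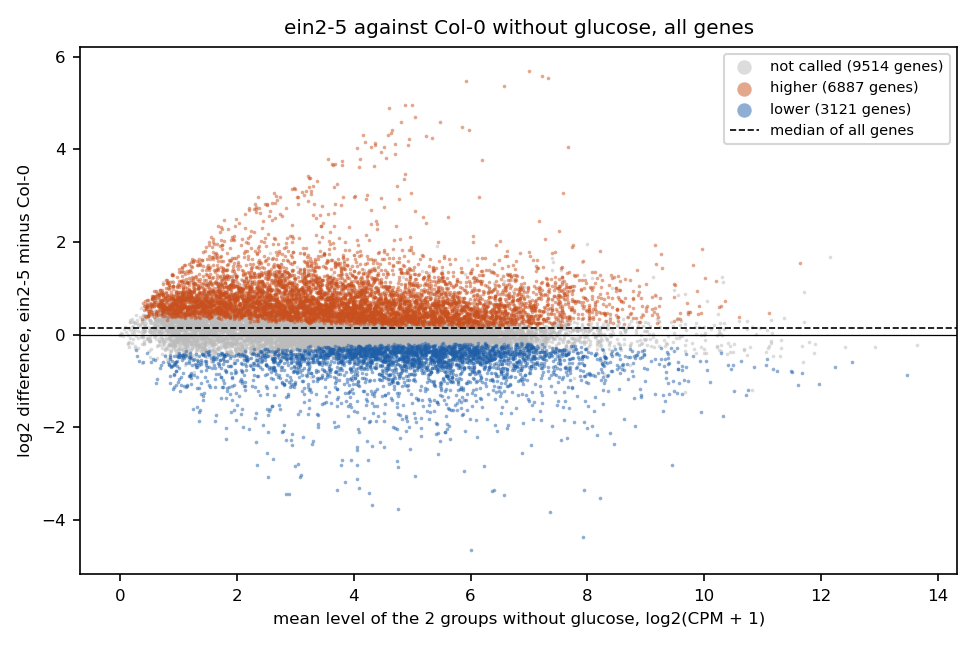
Log2 difference between ein2-5 and Col-0 without glucose against the mean level of the 2 groups, log2(CPM + 1), for 19522 genes. Orange points are the 6887 genes called higher, blue points the 3121 called lower and grey points the rest, and the dashed line is the median of all genes, 0.15.

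The 12 largest falls joined genes of amino acid breakdown, ethylene perception, defence and growth. THA1 (AT1G08630, chromosome 1, 2743761 to 2747967), a threonine aldolase that splits threonine into glycine and acetaldehyde, stood at 481, 495 and 417 CPM in Col-0 and at 27.3, 15.7 and 22.6 CPM in ein2-5, a log2 difference of −4.38 ± 0.164 (adjusted p = 7.83e-09). BCAT-2, a branched-chain amino acid aminotransferase, stood at 309, 334 and 271 CPM against 24.6, 12 and 28.5 CPM (−3.83 ± 0.263). In both genes the 3 ein2-5 libraries lay far below the 3 Col-0 libraries. A lack of overlap, seen for 20.1% of all genes in this direction, was a condition for entry to the 12. The other 10 were AZI1 and EARLI1 of the lipid transfer protein family, the NAC transcription factor NAC6 (also called ORE1, a driver of leaf senescence), ARL, CYP81D8, ETR2, the receptor-like kinase CRK11, the bHLH factor BEE3, the AP2/ERF factor RAP2.6 and PSK2, a precursor of the peptide hormone phytosulfokine. They fell by 3.03 to 3.47 on the log2 scale. Because 1 CPM is added before taking logs, falls to near 0 are understated: NAC6, at 13.6, 13.7 and 10.5 CPM in Col-0 and 0.137, 0.333 and 0.304 CPM in ein2-5, had −3.43 here and −5.74 in edgeR on the recovered reads. Rises from near 0 are understated likewise. In edgeR the difference of 35 of the 158 named genes past the threshold moved by more than 1.5-fold, and it was larger in 31 of them and smaller in 4.

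The 12 largest rises were 10 genes known from seeds and 2 of anthocyanin synthesis. The cruciferin storage protein gene CRU3 stood at 53.4, 0.344 and 1.55 CPM in Col-0 and at 242, 225 and 372 CPM in ein2-5 (log2 difference 5.58 ± 1.26, adjusted p = 0.00247). Without Col-0 library 1 its difference was 7.21, and without Col-0 library 2 it was 4.54. On the recovered reads it was 3.81 in edgeR and 3.78 in DESeq2. The late embryo gene M17, the cruciferin CRA1, the albumins SESA1, SESA2 and SESA5, the beta-glucosidase BGLU19, NSP2, the dehydrin RAB18 and the defensin LCR67 shared the pattern, with differences of 4.41 to 5.69. In all 10 genes Col-0 library 1 held more than the other two Col-0 libraries together. All 15 measured members of the seed storage and late embryo list were higher in ein2-5, with a median log2 difference of 3.93 against 0.15 over all genes. The median was 4.84 without Col-0 library 1. DESeq2 on the recovered reads called 10 of the 15 higher, and 14 or 15 were called when any single library was left out. The same 15 were also higher with glucose, with a list median of 5.25. In none did the 2 differences differ past the threshold, but the errors were wide, as in CRU3 (−2.04 ± 1.77). With glucose the seed sums of the ein2-5 libraries ran from 157 to 3559 CPM, so that test could miss a sizeable change.

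**Figure D3:**
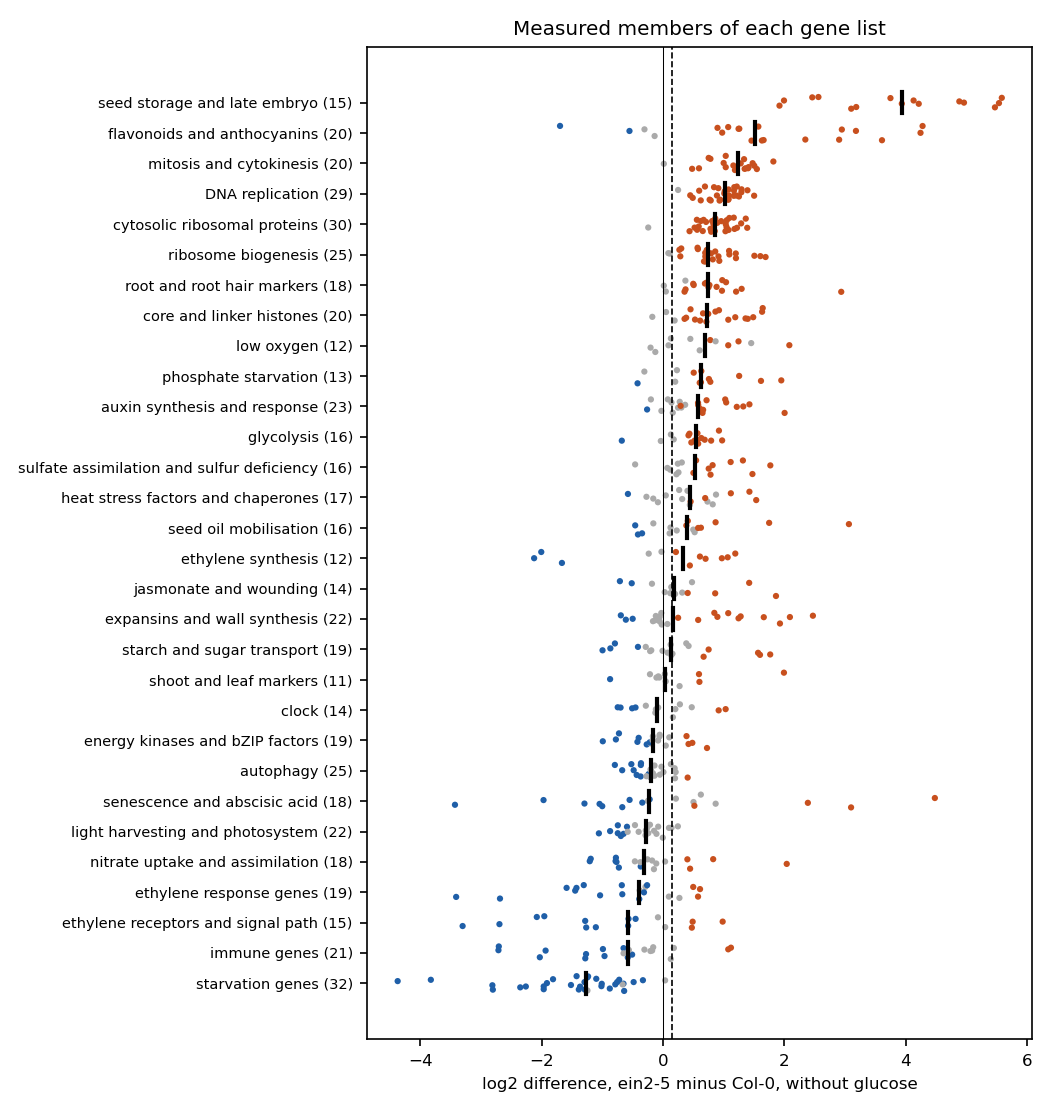
Log2 difference between ein2-5 and Col-0 without glucose for each measured member of the 30 gene lists, with the number measured in brackets. Orange points were called higher, blue lower and grey not called, black bars are list medians, and the dashed line is the median of all genes. The starvation list has the lowest median, −1.27, and the seed list the highest, 3.93.

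Ethylene perception and signalling lay mostly lower in the mutant. Of 15 genes of the receptors and the signal path, 10 were lower and 3 higher (2 after TMM), with a median of −0.58. The receptor ETR2 (AT3G23150, chromosome 3, 8254559 to 8257888) stood at 40.3, 26.9 and 22.6 CPM in Col-0 and at 1.85, 1.93 and 2.35 CPM in ein2-5, a difference of −3.31 ± 0.247 (adjusted p = 7.19e-07). The receptor ERS2 stood at 25.2, 26.1 and 25.7 CPM against 2.74, 3.27 and 3.34 CPM (−2.70 ± 0.113). ERS1, another receptor, stood at 150, 143 and 131 CPM against 35.4, 30.4 and 32.1 CPM (−2.08 ± 0.0832). In each of these 3 receptors every ein2-5 library lay far below every Col-0 library. The remaining receptors moved less and not in one direction: ETR1 fell by 0.58 and EIN4 rose by 0.49.

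RTE1, a membrane protein that acts on the receptor ETR1, fell by 1.28 ± 0.104. Downstream of the receptors, the kinase CTR1 fell by 1.11 ± 0.0968. The transcription factors EIN3 and EIL1 were lower by smaller steps, −0.45 ± 0.0895 and −0.57 ± 0.0983. The 2 F-box proteins that send EIN3 and EIL1 to degradation went opposite ways. EBF2 stood at 198, 144 and 130 CPM in Col-0 and at 40.3, 34.3 and 43.1 CPM in ein2-5 (−1.96 ± 0.175), whereas EBF1 stood at 90, 67.5 and 68.4 CPM and at 146, 144 and 155 CPM (0.98 ± 0.108, adjusted p = 1.22e-05). ETP2, an F-box protein that targets EIN2, rose by 0.47. ETP1 (−0.09, adjusted p = 0.58) and the exonuclease XRN4 (0.03, adjusted p = 0.73) did not pass the test.

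Genes that make ethylene divided by family member. Of 12 measured genes, 7 were higher and 3 lower (5 and 4 after TMM). As deposited, 58.3% were higher and 25% lower, against 35.3% and 16.0% of all genes. Among the lower ones were the oxidase EFE (also called ACO4), which carries out the last step, and the synthase ACS7. EFE stood at 570, 573 and 481 CPM in Col-0 and 140, 117 and 113 CPM in ein2-5 (−2.13 ± 0.188). ACS7 stood at 20.6, 48.7 and 54.8 CPM and 6.65, 8.33 and 11.8 CPM (−2.01 ± 0.296). The risers included scarce transcripts: the synthase ACS5 was at 0.0714, 0 and 0 CPM in Col-0 and 1.85, 0.666 and 1.67 CPM in ein2-5 (1.19, and 5.46 in edgeR), and the oxidase ACO1 at 5.21, 2.63 and 3.04 CPM and 8.23, 7.53 and 9.57 CPM.

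Ethylene response genes were likewise lower in most cases. Of 19 measured, 12 were lower and 3 higher (13 and 2 after TMM), with a median of −0.39. The count of lower genes was 8 to 11 when any single library was left out. ARL (AT2G44080), a relative of the organ size gene ARGOS, stood at 31.8, 34.7 and 35.7 CPM in Col-0 and at 1.99, 2.07 and 2.89 CPM in ein2-5 (−3.41 ± 0.28). ARGOS itself stood at 12.8, 8.82 and 7.28 CPM and at 0.617, 0.533 and 0.684 CPM (−2.69 ± 0.172, and −4.12 in edgeR). The transcription factors RAV2 and TEM1 fell by 1.59 ± 0.298 and 1.43 ± 0.248, and for both Col-0 library 1 was the lowest Col-0 library, at 86.6 CPM for RAV2 and 111 CPM for TEM1. ERF5 had −1.45 (adjusted p = 0.0169) with Col-0 at 4.5, 24.9 and 20.8 CPM. Its difference was −2.15 without Col-0 library 1, and it missed the threshold without Col-0 library 2 (−1.04, adjusted p = 0.0879) and without Col-0 library 3 (−1.16, adjusted p = 0.0741). RSL4, a root hair factor, TAR2 of auxin synthesis and ASB1 of tryptophan synthesis were the 3 that were higher.

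**Figure D4:**
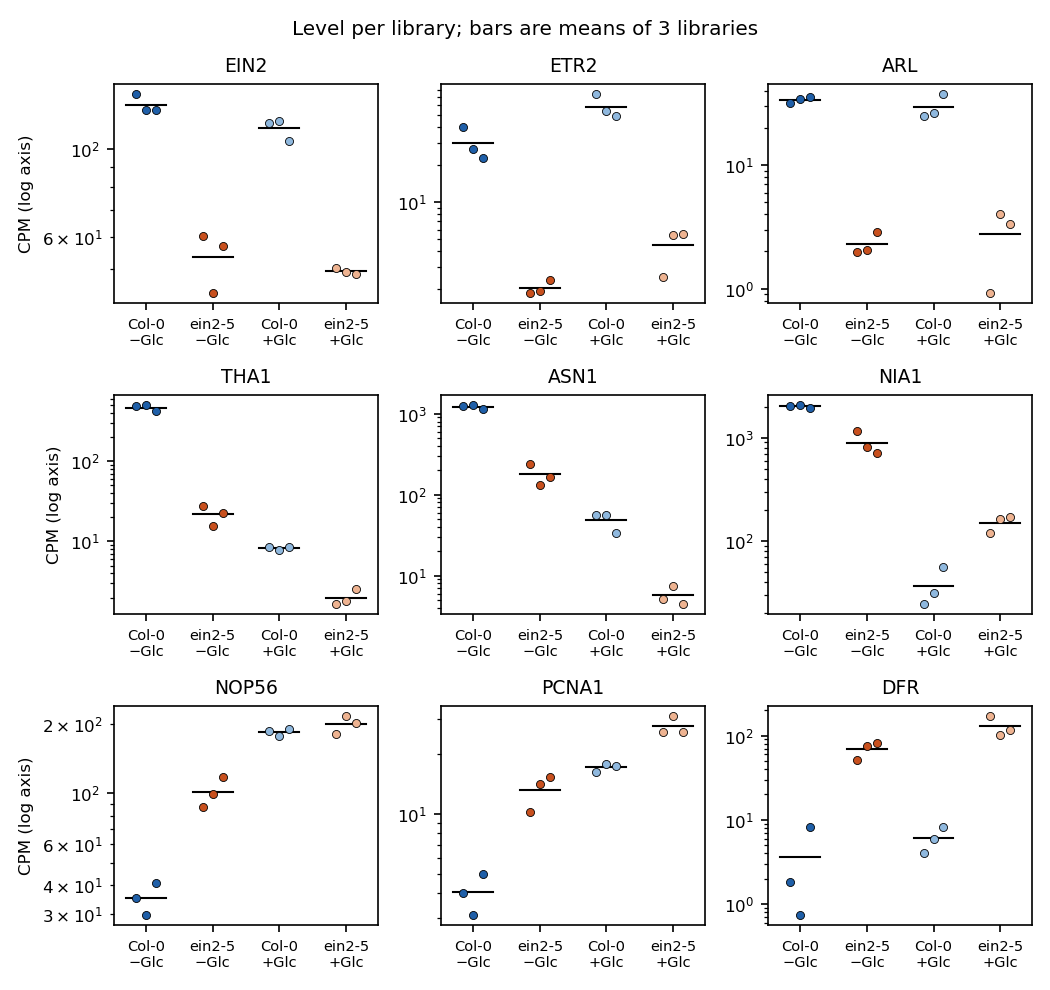
CPM on log axes for 9 genes in each of the 12 libraries, with bars at the mean of 3. Without glucose, EIN2, ETR2, ARL, THA1, ASN1 and NIA1 are lower in all 3 ein2-5 libraries than in all 3 Col-0 libraries, and NOP56, PCNA1 and DFR are higher. NIA1 is ordered the other way with glucose.

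Genes of carbon starvation formed the group with the lowest median. They include the dark-inducible DIN genes, breakdown of branched-chain amino acids, and other genes that plants raise when sugar runs out. Of 32 members, all measured, 29 were lower and none was higher in ein2-5, against 16.0% and 35.3% of all genes, and the median was −1.27. The counts were also 29 and 0 after TMM, in edgeR and in DESeq2, and the number of lower genes was 26 to 29 when any single library was left out. The list had been assembled with earlier results of these libraries known.

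ASN1 (AT3G47340, chromosome 3, 17437840 to 17441431), the asparagine synthetase that stores nitrogen when carbon is short, stood at 1234, 1265 and 1142 CPM in Col-0 and at 238, 130 and 165 CPM in ein2-5 (−2.81 ± 0.23, adjusted p = 1.34e-06). The ubiquitin ligase gene ATL8 stood at 20.9, 24.2 and 24.2 CPM against 2.74, 1.87 and 2.73 CPM (−2.81 ± 0.16). SEN1, a dark- and senescence-induced gene, stood at 561, 629 and 556 CPM against 161, 84.9 and 105 CPM (−2.36 ± 0.191). No library of one genotype reached the range of the other in these 3 genes. MIOX4, a myo-inositol oxygenase added here because its promoter is printed, after its values were seen, stood at 81.3, 84.7 and 78.9 CPM against 18.2, 14.1 and 16.6 CPM (−2.26 ± 0.134). The 3 members that did not pass were TPS8 (−0.67, adjusted p = 0.24), BT2 (−1.25, adjusted p = 0.12) and MIOX2 (0.03, adjusted p = 0.89).

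The bases just before ASN1 and MIOX4 are shown for a short element, TATCCA. Among called starvation genes with this element in the 200 bases before the start, these 2 had the largest differences. Genes without it there were passed over whatever their difference. Each promoter was taken as 250 bases before to 50 bases after the annotated gene start, and searched on both strands for TATCCA, known from the sugar response of amylase genes in rice, and for ACGTG, the core of sites bound by bZIP factors. TATCCA was in 13 of the 32 starvation promoters (40.6%) against 16.6% of 19351 promoters. Other lists had like shares, with 45.5% of light-harvesting, 38.5% of phosphate starvation and 36% of autophagy promoters, and 20.4% of the promoters of all lower genes held it. The starvation list held ACGTG in 9 of 32 promoters (28.1%), against 28.1% of all promoters. A match describes the letters and does not show binding. The 200 bases before each start follow, read 5′ to 3′ on the strand of the gene, from the RefSeq sequence of TAIR10.1, ASN1 at chr3:17441432-17441631 on the minus strand and MIOX4 at chr4:13297495-13297694 on the plus strand. Capitals mark the matches, which in ASN1 are 2 overlapping ACGTG on opposite strands, 1 TATCCA and 1 AAACCCTA (a telo box), and in MIOX4 1 TATCCA on the opposite strand.
ASN1: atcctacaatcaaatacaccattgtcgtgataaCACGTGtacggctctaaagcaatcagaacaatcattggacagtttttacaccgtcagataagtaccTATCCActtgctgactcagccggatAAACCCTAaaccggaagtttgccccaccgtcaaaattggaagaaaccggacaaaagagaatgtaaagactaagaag
MIOX4: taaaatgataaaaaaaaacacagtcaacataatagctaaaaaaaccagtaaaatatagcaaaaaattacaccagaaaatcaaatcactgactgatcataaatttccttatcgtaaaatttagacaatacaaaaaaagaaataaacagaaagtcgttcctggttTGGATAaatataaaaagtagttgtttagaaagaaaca

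Genes of the energy sensors moved by less than 1 on the log2 scale. Of 19 measured genes of the SnRK1, TOR and hexokinase systems and of the C and S1 groups of bZIP factors, 7 were lower and 4 higher (12 and 3 after TMM). As deposited, 36.8% were lower and 21.1% higher, against 16.0% and 35.3% of all genes. The SnRK1 catalytic subunits KIN10 (−0.06, adjusted p = 0.63) and KIN11 (−0.08, adjusted p = 0.42) did not pass the test. The bZIP factors BZIP9, BZIP25 and BZO2H3 (also called bZIP63, a target of SnRK1) were lower, by −0.99 ± 0.128, −0.78 ± 0.0898 and −0.73 ± 0.182. Hexokinases were higher: HXK1, a glucose sensor, stood at 40.1, 33.3 and 36 CPM in Col-0 and at 56.3, 60.2 and 65.9 CPM in ein2-5 (0.72 ± 0.0901), and HXK2 rose by 0.48 ± 0.0968.

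Autophagy genes, which serve the recycling of cell content, were lower in 9 of 25 cases and higher in 1 (17 and 0 after TMM). As deposited, 36% were lower and 4% higher, against 16.0% and 35.3% of all genes. ATG8E, 1 of the genes for the protein that coats the autophagosome, stood at 166, 163 and 160 CPM in Col-0 and at 115, 92.2 and 99 CPM in ein2-5 (−0.68 ± 0.178, adjusted p = 0.00671). ATG8B fell by 0.80 ± 0.102, APG5 by 0.52 ± 0.118, ATG12A by 0.49 ± 0.128 and ATG4A by 0.44 ± 0.0931. The count of lower genes was 6 to 10 when any single library was left out.

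Mineral nutrition genes did not share a direction. Both nitrate reductases, the first step of nitrate assimilation, were lower in ein2-5: NIA1 (AT1G77760, chromosome 1) stood at 2045, 2050 and 1956 CPM in Col-0 and at 1164, 809 and 703 CPM in ein2-5 (−1.21 ± 0.251, adjusted p = 0.00145), and NIA2 at 2274, 2494 and 2410 CPM and at 1373, 997 and 833 CPM (−1.19 ± 0.214). The nitrate transporters NRT1.5, which loads the xylem, and NRT1.1, also a nitrate sensor, were higher by 2.04 ± 0.241 and 0.82 ± 0.127, while WR3, a partner of high-affinity transporters, fell by 0.78 ± 0.128. Over the nitrate list, 7 of 18 were lower and 4 higher (9 and 3 after TMM). As deposited, 38.9% were lower and 22.2% higher, against 16.0% and 35.3% of all genes.

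For sulfate, 9 of 16 were higher and none lower (9 and 1 after TMM). The share higher was 56.25%, against 35.3% of all genes. The sulfate reductases APR1 and APR2 stood at 2.5, 1.66 and 2.46 CPM and 16.5, 16.5 and 20.9 CPM in Col-0, and at 5.14, 9.6 and 9.57 CPM and 41.2, 51.6 and 45.5 CPM in ein2-5. SDI2, a gene of the sulfur deficiency response, rose by 1.77 ± 0.216, the acetyltransferase SERAT3;2 by 1.11 ± 0.27 (2.04 in edgeR) and the vacuolar exporter SULTR4;2 by 0.82 ± 0.187. For phosphate, 9 of 13 were higher and 1 lower (8 and 1 after TMM). These shares were 69.2% and 7.69%, against 35.3% and 16.0% of all genes. The phosphatase PAP17 stood at 1.71, 1.32 and 0.974 CPM against 4.11, 7.6 and 15.2 CPM (1.95 ± 0.342, and 2.58 in edgeR), and the transporter PHT1;1 at 18.5, 18.6 and 15.4 CPM against 41.1, 42.8 and 44.9 CPM (1.25 ± 0.129). PHO1;H1 rose by 1.61 ± 0.203 (2.33 in edgeR), and MGD2 and SQD2, enzymes that replace phospholipids, by 0.78 ± 0.17 and 0.75 ± 0.099.

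Genes of ribosome production were higher in the starved mutant. Of 25 ribosome biogenesis genes, 23 were higher and none lower (20 and 0 after TMM), with a median of 0.74. NOP56 (AT1G56110, chromosome 1, 20984273 to 20986952), a core protein of the particles that methylate ribosomal RNA, stood at 35, 29.6 and 40.6 CPM in Col-0 and at 86.8, 99 and 118 CPM in ein2-5 (1.50 ± 0.125, adjusted p = 1.51e-06). NOP5, its partner, stood at 20.6, 16.3 and 20.2 CPM against 37.8, 43.3 and 54.6 CPM (1.20 ± 0.124). FIB2, the methylase fibrillarin of the same particle, stood at 21.4, 16.4 and 24.3 CPM against 48.4, 73.5 and 89 CPM (1.69 ± 0.216). The groups did not overlap in these 3 genes, nor in BRIX1-1 (1.60 ± 0.157) and BRIX1-2 (1.20 ± 0.129), factors of large subunit assembly. Of 30 cytosolic ribosomal protein genes, 29 were higher and none lower (26 and 1 after TMM), with a median of 0.85. RPS6, whose protein is phosphorylated downstream of TOR, stood at 184, 176 and 197 CPM against 380, 412 and 477 CPM (1.18 ± 0.0966), and RPL23AB, RPL27AC, RPL9D and RPL5B rose by 1.22 to 1.39. Members of ribosomal protein families resemble each other closely, and how the counting split their shared reads was not given. RPL10C, listed under the symbol SAG24, did not pass (−0.25, adjusted p = 0.07).

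The promoters of NOP56 and NOP5 are shown for the telo box AAACCCTA and for GGCCCA, elements known from ribosomal protein and cell division genes. Among called ribosome biogenesis genes with a telo box in the 200 bases before the start, these 2 had the largest differences. Genes without a telo box there were passed over whatever their difference. Telo boxes were in 15 of 25 ribosome biogenesis promoters (60%) and 15 of 30 ribosomal protein promoters (50%), against 5.56% of all promoters. GGCCCA was in 60% and 70% of them, against 18.9% of all. Other lists also held GGCCCA often, with 51.7% of DNA replication, 40% of histone and 38.5% of phosphate starvation promoters. Among all promoters of genes higher in ein2-5, 8.14% held a telo box and 21.1% held GGCCCA, against 3.14% and 14.1% for the genes that were lower. The 200 bases before the starts are at chr1:20986953-20987152 on the minus strand for NOP56 and chr5:9540661-9540860 on the plus strand for NOP5. Capitals mark the matches on either strand, 3 GGCCCA and 1 telo box in NOP56 and 2 GGCCCA and 1 telo box in NOP5.
NOP56: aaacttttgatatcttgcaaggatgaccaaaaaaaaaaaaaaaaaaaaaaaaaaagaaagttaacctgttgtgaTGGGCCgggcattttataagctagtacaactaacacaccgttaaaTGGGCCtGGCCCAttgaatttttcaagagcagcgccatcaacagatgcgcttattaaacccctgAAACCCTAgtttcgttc
NOP5: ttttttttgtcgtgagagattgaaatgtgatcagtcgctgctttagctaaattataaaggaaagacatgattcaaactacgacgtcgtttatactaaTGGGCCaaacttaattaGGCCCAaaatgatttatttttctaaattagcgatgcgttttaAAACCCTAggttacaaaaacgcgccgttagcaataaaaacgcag

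Genes of DNA replication were higher in 28 of 29 cases and lower in none (27 and 0 after TMM), with a median of 1.02. PCNA1 (AT1G07370, chromosome 1, 2263037 to 2264553), the sliding clamp of the replication fork, stood at 4, 3.09 and 4.98 CPM in Col-0 and at 10.2, 14.2 and 15.3 CPM in ein2-5 (1.50 ± 0.158, adjusted p = 8.59e-06). RPA70B, a subunit that binds single-stranded DNA, stood at 2.93, 2.69 and 4.12 CPM against 8.64, 10.3 and 11.3 CPM (1.39 ± 0.138). The ribonucleotide reductase TSO2 stood at 21.2, 17.1 and 24.2 CPM against 47.1, 54.4 and 50 CPM (1.25 ± 0.111). In PCNA1 and RPA70B the lowest ein2-5 library held more than 2 times the level of the highest Col-0 library. PCNA2 and the origin recognition subunit ORC1B rose by 1.29 each. CDC6 did not pass (0.25, adjusted p = 0.18).

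E2F factors act at the start of DNA synthesis, and their sites TTTCCCGC or TTTGGCGC were in 13 of 29 replication promoters (44.8%), against 1.32% of all promoters. RPA70B and MCM2 are the 2 called members with the largest differences among those with such a site in the 200 bases before the start. Each carries 1 of the 2 forms. Members without a site there were passed over whatever their difference. MCM2, a subunit of the replicative helicase named here for its promoter after its values were seen, stood at 10.1, 6.64 and 9.85 CPM in Col-0 and 19.1, 20.9 and 25.1 CPM in ein2-5 (1.21 ± 0.163). Both lie on the plus strand, RPA70B at chr5:2571757-2571956 and MCM2 at chr1:16970014-16970213, and capitals mark the E2F form and, in MCM2, 2 GGCCCA.
RPA70B: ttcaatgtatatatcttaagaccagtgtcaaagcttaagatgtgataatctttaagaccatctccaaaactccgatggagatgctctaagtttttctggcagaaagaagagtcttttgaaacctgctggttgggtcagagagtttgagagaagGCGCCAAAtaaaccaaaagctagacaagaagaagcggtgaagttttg
MCM2: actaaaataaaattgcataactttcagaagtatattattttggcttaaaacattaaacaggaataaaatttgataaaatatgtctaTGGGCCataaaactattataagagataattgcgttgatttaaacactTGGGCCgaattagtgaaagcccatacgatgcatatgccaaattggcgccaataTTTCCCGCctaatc

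Histone genes were higher in 17 of 20 cases and lower in none (13 and 1 after TMM). HIS4 stood at 27.9, 24 and 22.6 CPM in Col-0 and at 93, 74.3 and 72.2 CPM in ein2-5 (1.64 ± 0.129), and HTA6 at 25.1, 21 and 23.8 CPM and at 70.7, 74.6 and 76.9 CPM (1.63 ± 0.0882). HTB1, HTB2 and HTA10 rose by 1.36 to 1.48. The genes of the replacement histone H3.3, HTR4 (0.05, adjusted p = 0.62) and HTR5 (−0.18, adjusted p = 0.07), did not pass. Mitosis and cytokinesis genes were higher in 19 of 20 cases and lower in none, both as deposited and after TMM, with a median of 1.23. SYP111 (also called KNOLLE), the syntaxin of the cell plate, stood at 10.9, 12.2 and 16.3 CPM against 48.6, 46 and 49.9 CPM (1.82 ± 0.121). CYC1BAT (a B-type cyclin, CYCB1;2) stood at 5.5, 4.47 and 7.85 CPM against 18.2, 17.4 and 19.3 CPM (1.50 ± 0.145). The microtubule proteins PLE and HIK rose by 1.54 and 1.41, and CYCA1;1 by 1.47. TES was the exception (0.01, adjusted p = 0.95).

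Central carbon genes moved by less. Of 16 glycolysis genes, 12 were higher and 1 lower, as deposited and after TMM, with a median of 0.54. The kinase PGK stood at 125, 112 and 140 CPM in Col-0 and at 218, 239 and 286 CPM in ein2-5 (0.97 ± 0.107), iPGAM2 rose by 0.92, and GAPC1 and GAPC2 by 0.79 and 0.68. MEE51, a phosphofructokinase subunit, was the 1 that fell, by 0.68 ± 0.108. Starch and sugar transport genes were mixed, with 5 of 19 higher and 4 lower (5 and 7 after TMM), shares of 26.3% and 21.1% against 35.3% and 16.0% of all genes, and their median of 0.12 became −0.05 after TMM. GPT2, which brings glucose 6-phosphate into plastids, stood at 0.857, 0.401 and 0.516 CPM against 4.32, 3.2 and 5.92 CPM (1.76 ± 0.185, and 2.76 in edgeR). The starch synthase GBSS1 and the pyrophosphorylase subunit APL3 rose by 1.60 and 1.56, whereas the sugar exporter SWEET12 fell by 1.00 ± 0.152 and the importer STP4 by 0.87 ± 0.0882.

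Seed oil mobilisation genes were higher in 7 of 16 cases (43.8%, against 35.3% of all genes) and lower in 3 (18.8% against 16.0%). After TMM 4 were higher (25%, against 26.3% of all genes) and 3 lower, so the counts were near those of genes at large. MLS, the malate synthase of the glyoxylate cycle, stood at 53.7, 21.9 and 45.2 CPM in Col-0 and at 209, 325 and 492 CPM in ein2-5 (3.06 ± 0.404), and ICL, the isocitrate lyase of that cycle, at 279, 226 and 313 CPM and at 585, 1058 and 1214 CPM (1.75 ± 0.374). PMDH1 and PKT3 rose by 0.86 ± 0.145 and 0.62 ± 0.159. These genes moved beside the seed storage sum, which was also higher in ein2-5.

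Light-harvesting and photosystem genes were lower in 7 of 22 cases and higher in none (10 and 0 after TMM, 12 and 0 in edgeR, 14 and 0 in DESeq2), with a median of −0.29. As deposited, 31.8% were lower, against 16.0% of all genes. LHB1B2 stood at 5523, 5753 and 4754 CPM in Col-0 and at 2382, 3789 and 1847 CPM in ein2-5 (−1.06 ± 0.252, adjusted p = 0.00351). The members of the same antenna complex LHCB2.1 and CAB2 fell by 0.75 ± 0.183 and 0.70 ± 0.206. The count became 4 without ein2-5 library 3. CAB1 (−0.87, adjusted p = 0.019) missed the threshold when Col-0 library 1 or 2 or ein2-5 library 1 or 3 was left out, with −0.72 without ein2-5 library 3. LHB1B1 (−0.75) had −0.53 and an adjusted p of 0.0523 without ein2-5 library 3. RBCS1A, the small subunit of Rubisco, did not pass (−0.22, adjusted p = 0.52). Copies of the antenna genes are nearly identical, so their reads may have been split.

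Genes of flavonoid and anthocyanin synthesis were higher in the starved mutant. Of 20 measured flavonoid genes, 16 were higher and 2 lower (16 and 3 after TMM), with a median of 1.51. DFR (AT5G42800, chromosome 5, 17164093 to 17166032), dihydroflavonol reductase, stood at 1.86, 0.745 and 8.19 CPM in Col-0 and at 51.7, 75 and 82.2 CPM in ein2-5 (4.28 ± 0.453, adjusted p = 8.9e-06). LDOX, the next enzyme, stood at 2.36, 0.802 and 9.17 CPM against 55.1, 83.6 and 86.8 CPM (4.24 ± 0.448). Without Col-0 library 3, the highest of its group, the differences were 4.96 and 4.92. Later steps shared the rise: the glycosyltransferase UF3GT (3.61 ± 0.342), the malonyltransferase AT5MAT (3.18 ± 0.293) and GSTF12 (also called TT19, 2.95 ± 0.275), which is needed to bring anthocyanins to the vacuole. Of the regulators of the branch, TT8 (−0.31, adjusted p = 0.12) and MYB111 (−0.14, adjusted p = 0.71) did not pass. The activator PAP1 was higher (2.90) and the repressor MYBL2 lower (−1.70), both named for their role after their values were seen.

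Auxin genes were higher in 13 of 23 cases and lower in 1 (11 and 1 after TMM). As deposited, 56.5% were higher and 4.35% lower, against 35.3% and 16.0% of all genes. GH3.3, which conjugates auxin to amino acids, stood at 2.36, 3.67 and 3.49 CPM in Col-0 and at 13.6, 12.7 and 21.5 CPM in ein2-5 (2.00 ± 0.188). The response gene IAA19 rose by 1.42 ± 0.144 (2.02 in edgeR), SHY2 (also called IAA3) by 1.32 ± 0.188 and GH3.1 by 1.04 ± 0.141 (2.31 in edgeR). Of the synthesis genes, TAA1 (0.36, adjusted p = 0.05), YUC3 (0.27, adjusted p = 0.28) and YUC8 (0.16, adjusted p = 0.43) did not pass. Among expansins and wall genes, 11 of 22 were higher (50%, against 35.3% of all genes) and 3 lower (13.6%, against 16.0%). After TMM the counts were 10 and 7, and the list median of 0.16 became −0.01. The 3 lower ones became 1 when Col-0 library 2 or ein2-5 library 2 or 3 was left out. XTH9, a wall-loosening enzyme, stood at 81.1, 79.4 and 108 CPM against 331, 335 and 352 CPM (1.93 ± 0.13). XTH17, EXPB1, EXPA5 and XTH33 rose by 1.28 to 2.47, while the cellulose synthase CESA1 did not pass (−0.17, adjusted p = 0.15).

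Root and root hair markers were higher in 15 of 18 cases and lower in none (11 and 0 after TMM), with a median of 0.73. The root hair genes LRX1, RHS19, EXPA18 and PRP3 rose by 1.29, 1.20, 1.04 and 0.97. LRX1 stood at 2.07, 3.21 and 3.49 CPM in Col-0 and at 7, 7.53 and 11.5 CPM in ein2-5. The iron transporter IRT1 stood at 5.57, 0.229 and 5.1 CPM against 11.3, 45.6 and 37.4 CPM (2.94 ± 0.645), and had 2.15 without Col-0 library 2 and 3.53 without ein2-5 library 1. Markers of the root's inner tissues and stem cell niche, SCR (0.04, adjusted p = 0.73), MYB36 (0.01, adjusted p = 0.95) and PLT1 (0.37, adjusted p = 0.07), did not pass. Of 11 shoot and leaf markers, 3 were higher and 1 lower, the latter CAB1, which is also in the light-harvesting list. Both shares, 27.3% and 9.09%, lay below the 35.3% and 16.0% of all genes. The median of 0.03 became −0.14 after TMM. Their summed level, most of it from CAB1, RBCS1A and LHCB3, was 29919 to 32639 CPM in Col-0 and 19498 to 26844 CPM in ein2-5 and did not overlap (exact two-sided permutation p = 0.1). CER1 of wax synthesis, ANT, a growth factor of young organs, and the stomatal factor MUTE were higher by 1.99 (2.63 in edgeR), 0.60 and 0.59, and the meristem gene STM (−0.06, adjusted p = 0.73) did not pass.

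Defence genes lay lower in the mutant. Of 21 measured immune genes, 11 were lower and 2 higher (16 and 2 after TMM), with a median of −0.58 that was −1.18 in edgeR and in DESeq2. As deposited, 52.4% were lower and 9.52% higher, against 16.0% and 35.3% of all genes. FLS2, the receptor of bacterial flagellin, stood at 26.9, 24.1 and 18.1 CPM in Col-0 and at 2.54, 3.13 and 2.28 CPM in ein2-5 (−2.71 ± 0.187, adjusted p = 3.89e-07). WRKY40 stood at 10.8, 34.6 and 52.4 CPM against 2.54, 3.66 and 3.8 CPM (−2.71 ± 0.407), and WRKY33 at 16.9, 64.1 and 130 CPM against 11, 12.3 and 16.1 CPM (−1.94 ± 0.516). Col-0 library 1 was the lowest Col-0 library for both of these stress-induced factors. Without it they had −3.34 and −2.73, and WRKY33 had −1.29 without Col-0 library 3. WRKY22 fell by 2.03 ± 0.234 and CRK13 by 1.28 ± 0.234 (−2.42 in edgeR), while PAD4 (−0.16, adjusted p = 0.34), EDS1 (0.13, adjusted p = 0.50) and BAK1 (−0.21, adjusted p = 0.07) did not pass. Among 14 jasmonate genes, 4 were higher and 2 lower (3 and 2 after TMM), shares of 28.6% and 14.3% that lay below those of all genes. The higher count was 6 without ein2-5 library 1 and the lower count 1 without ein2-5 library 3. The synthesis enzyme AOS stood at 4.86, 3.84 and 4.64 CPM against 15.4, 20.4 and 20.7 CPM (1.86 ± 0.135), VSP2 and LOX3 rose by 1.42 and 0.86, and AOC2 fell by 0.71. VSP2 had 4.25 in edgeR and 4.37 in DESeq2.

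Senescence and abscisic acid genes went in both directions, with 9 of 18 lower and 4 higher (10 and 4 after TMM). As deposited, 50% were lower, above the 16.0% of all genes, and 22.2% higher, below the 35.3% of all genes. The higher count was 7 in the 6 libraries without glucose alone. NAC6 and NAC3 (also called NAC055) fell, NAC3 from 16.5, 23.6 and 20.7 CPM in Col-0 to 4.39, 4.8 and 3.95 CPM in ein2-5 (−1.97 ± 0.2). KIN1, a cold- and abscisic-acid-induced gene, stood at 0.928, 0.515 and 1.55 CPM against 11, 21.8 and 16.1 CPM (3.10 ± 0.272, and 3.85 in edgeR), and LTI65 rose by 2.39 ± 0.484. Clock genes were lower in 4 of 14 cases (28.6%, against 16.0% of all genes) and higher in 2 (14.3%, against 35.3%). After TMM 6 were lower and 2 higher. The evening gene TOC1 stood at 475, 486 and 424 CPM against 342, 249 and 266 CPM (−0.70 ± 0.121), PRR7 and ZTL fell by 0.75 and 0.51, and the morning genes LHY and RVE8 rose by 1.03 and 0.91. CCA1 did not pass (0.47, adjusted p = 0.15). Of 12 low-oxygen genes 4 were higher and none lower (3 and 2 after TMM), and 33.3% higher is near the 35.3% of all genes. PCO1 (2.08 ± 0.503, and 2.74 in edgeR), PDC1 (1.24 ± 0.338) and SUS4 (0.78 ± 0.168, and 1.53 in edgeR) were among them, while ADH1 (0.45, adjusted p = 0.24) did not pass. Of 17 heat genes 5 were higher (29.4%) and 1 lower (5.88%), or 4 and 1 after TMM. Both shares as deposited lay below the 35.3% and 16.0% of all genes. The higher count became 8 in the 6 libraries without glucose alone and 3 in edgeR. It was 3 without Col-0 library 1 or 3, 1 without Col-0 library 2 and 2 without ein2-5 library 3. HSP70 stood at 6.5, 4.12 and 5.61 CPM against 16.1, 9.86 and 25.3 CPM (1.42 ± 0.34), and HSFA3 fell by 0.58.

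The same genotype contrast with glucose served to show which of these differences depended on the sugar condition. With glucose, 5100 genes (26.1%) were higher and 4080 (20.9%) lower in ein2-5. The genotype difference without glucose exceeded that with glucose for 2606 genes (13.3%) and was below it for 1072 (5.49%), by a test of the difference of the 2 differences. An alternative fit left out Col-0 library 1 without glucose and ein2-5 libraries 2 and 3 with glucose. Their seed sums of 170, 2290 and 3559 CPM were high for their groups. The fit kept the 3 ein2-5 libraries without glucose, with seed sums of 808, 833 and 1414 CPM. Of ein2-5 with glucose only library 1 remained, so counts of genes from that fit are not given here. In total 531 genes were called in opposite directions in the 2 conditions. Of the genes higher without glucose 54.7% were also higher with it, and of those higher with glucose 73.9% were also higher without it. For lower genes the shares were 54.3% and 41.5%.

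Of the 30 lists, that of starvation genes held the most negative differences between the conditions. In 27 of its 32 genes the difference was below that with glucose, against 5.49% of all genes, and none was above. With glucose 14 of the 32 were higher and 7 lower in ein2-5, and the median was 0.38. Among all genes 26.1% were higher and 20.9% lower with glucose, so the lower count was near the share at large. STP1 and BT1, for instance, were not called with glucose (0.08 and 0.33), whereas they were lower without it (−1.97 and −1.82), both named after their values were seen. ASN1 was an exception: its genotype difference was −2.81 without and −2.87 with glucose, a difference of 0.06 (adjusted p = 0.92), although its Col-0 level was 56.2, 55.5 and 33.4 CPM with glucose. The nitrate reductases changed sides. NIA1 stood at 24.5, 31 and 55.3 CPM in Col-0 and 118, 162 and 170 CPM in ein2-5 with glucose, so its difference was 2.06 there and −1.21 without glucose (difference of −3.27, adjusted p = 0.0001). NIA2 and PPDK had differences of −2.94 and −3.23 of the same kind.

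Ribosome biogenesis held the most positive ones. In 22 of 25 genes the difference without glucose exceeded that with glucose, against 13.3% of all genes. With glucose 2 were higher and 5 lower, against 26.1% and 20.9% of all genes, so the lower count was near the share at large. NOP56 stood at 187, 178 and 191 CPM in Col-0 and at 181, 216 and 202 CPM in ein2-5 with glucose, a genotype difference of 0.10 (adjusted p = 0.52) that did not pass. The other growth lists had smaller shares. In DNA replication 14 of 29 genes exceeded, and 22 were higher with glucose too. Of the 30 ribosomal protein genes 4 exceeded, near the 13.3% of all genes, and 26 were higher with glucose. In mitosis and cytokinesis 1 gene exceeded, a smaller share than among all genes, and 1 fell below, with 19 of 20 higher in both conditions. Of the ethylene path 4 of 15 genes were below and 1 above. ETR2 differed by 0.17 (adjusted p = 0.78) between conditions, ERS1 by −0.92 (adjusted p = 0.00031) and ERS2 by −0.72 (adjusted p = 0.0079). Light-harvesting, root and seed storage lists had no gene whose difference depended on the condition past the threshold.

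**Figure D5:**
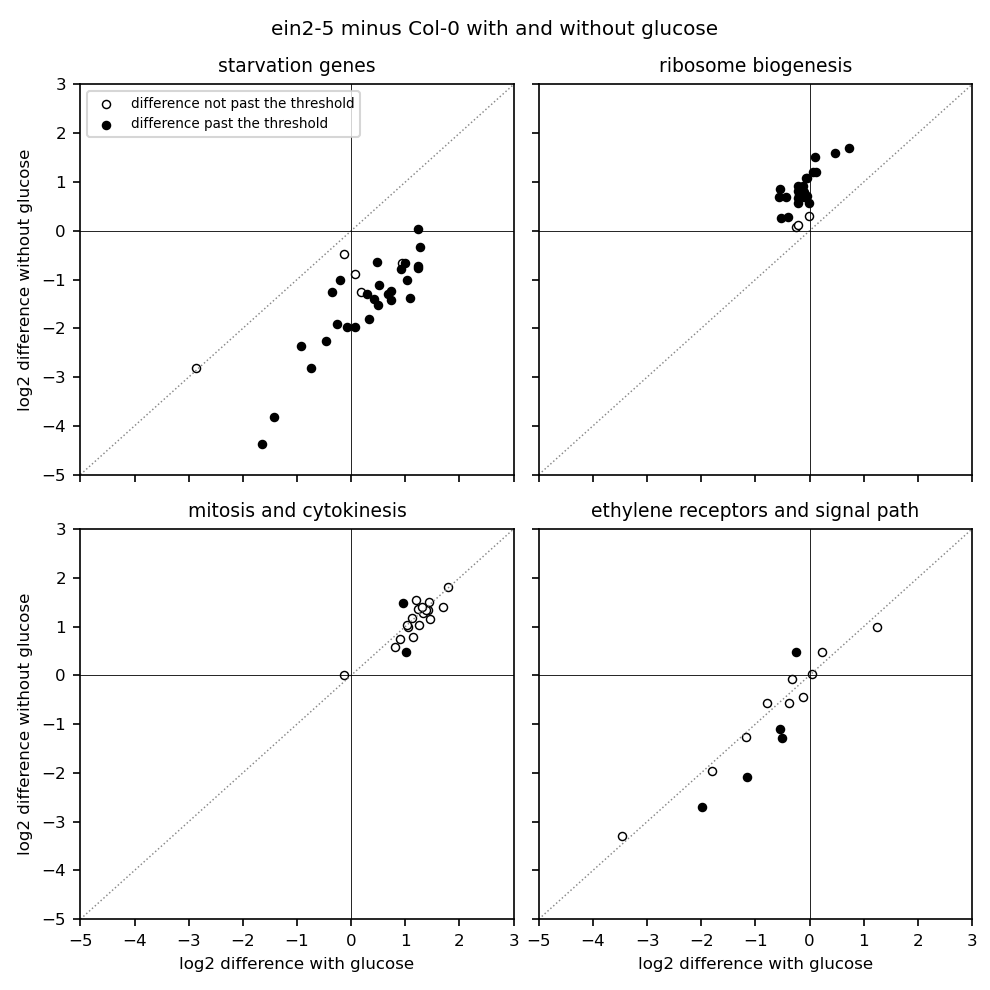
Log2 difference between ein2-5 and Col-0 without glucose against that with glucose for the measured members of 4 lists. Filled points passed the test of the difference between conditions, and the dotted line marks equal differences. Of the starvation genes 27 of 32 lie below the line as filled points, of ribosome biogenesis 22 of 25 lie above it, and of mitosis and cytokinesis 19 of 20 are called higher in both conditions.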

How the data were processed

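RNA of 12 seedling libraries was sequenced, and the groups were taken from the titles. Per the submitters' processing notes, the authors used TopHat, HTSeq and the TAIR10 genome. Versions and the strand setting are not given in the sources used here. The deposited values are CPM, a unit read from the values: every column sums to 1000000, and 100% of the 234264 values are whole multiples of 1 read within 0.01 reads. Genes low in every library had been left out of the deposited table, whose lowest gene maximum is 1.06 CPM. Of 19522 locus codes, 19352 matched the RefSeq annotation of TAIR10.1, the source of symbols, coordinates and promoters.

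Differences came from limma-trend on log2(CPM + 1) with 4 group means over all 12 libraries and 8 residual degrees of freedom, Benjamini-Hochberg adjusted over all genes at 0.05, with no filter. No unmapped value column existed. The script was tested on simulated data. The tools were limma 3.58.1 in R 4.3.3 and, as alternatives on the recovered reads, edgeR 4.0.16 (quasi-likelihood test) and DESeq2 1.42.0. The other alternatives were TMM scaling, nuclear genes only, a pseudocount of 0.25 CPM, a filter at 1 CPM in 3 libraries, the 6 libraries without glucose alone, a replicate block, and each of those 6 libraries left out in turn. A last one left out Col-0 library 1 without glucose and ein2-5 libraries 2 and 3 with glucose, whose seed sums were high for their groups.

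The comparison, the 30 gene lists (622 members, 564 of 615 loci measured) and the tests were chosen with earlier results of these data known. List members at loci without a row in the table were not analysed here, and 2 members whose locus carries another gene's name were dropped. Named genes were EIN2, the 12 largest rises and 12 largest falls past the threshold (with a symbol, genotype groups that did not overlap, and a mean of 5 CPM or more in one of them), from each list as many as 5 called members ranked by the size of their difference, and 6 genes each with the most positive and most negative difference between conditions. Other list members are named where they did not pass or to complete the ethylene path, and exceptions are marked. A few genes that this rule names are not reported here.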

Additional observations from a re-analysis of the deposited data

Results flagged for a closer look

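These results are listed because the genotype difference without glucose and the one with glucose differed by their own test (limma, adjusted p under 0.05). The value is the first minus the second on the log2 scale, positive for 2606 genes and negative for 1072. Of the 65 named genes, 30 missed the threshold under at least 1 alternative, among them FIB2, HIS4, PGK, RPL5B, ORC1B and SWEET12.

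The most positive values were those of FRK1 (3.93), NRT2.6 (3.31), RGF9 (2.80), NRT2.5 (2.78), ABCG8 (2.43) and HSFA2 (2.42). For HSFA2, a heat stress factor, the difference was 1.12 without glucose (adjusted p = 0.0305) and −1.30 with it, and the first missed the threshold when any of 3 libraries was left out, with 0.70 without ein2-5 library 3. RGF9, a root growth peptide, had 1.66 without glucose and −1.15 with it. The most negative were CYP81D11 (−3.41), NIA1 (−3.27), PPDK (−3.23), BXL2 (−3.04), NIA2 (−2.94) and THA1 (−2.73). CYP81D11 stood at 55.1, 64.5 and 50.5 CPM in Col-0 and 8.92, 9.46 and 18.6 CPM in ein2-5 without glucose, and below 4 CPM in all 6 libraries with it. BXL2, a wall glycosidase, did not pass without glucose (0.18, adjusted p = 0.741) and had 3.22 with it.

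Genes of starvation and catabolism were negative: BCAT-2 (−2.41), ATL8 (−2.07), SEN1 (−1.44), BZIP9 (−1.10), ATG8E (−0.89), APG5 (−0.60), ATG4A (−0.44) and SWEET12 (−0.71). So were the seed oil genes ICL (−2.0), PCK1 (−1.15) and PKT3 (−1.09), all higher in ein2-5 in both conditions. PCK1, with 0.58 without glucose, missed the threshold after TMM (0.40, adjusted p = 0.145) and when any library was left out. Other negative values were those of PSK2 (−2.66), NAC3 (−2.34), RAP2.6 (−1.96), NAC6 (−1.87), ERS1 (−0.92), RTE1 (−0.77) and ERS2 (−0.72).

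Of the growth lists, 4 of 30 ribosomal protein, 4 of 20 histone and 1 of 20 mitosis genes were positive. Among all genes 13.3% were positive, so the ribosomal protein count was near that share and the mitosis count below it. In the histone and mitosis lists 1 gene each was negative, against 5.49% of all genes. The growth genes named here that passed this test were positive. In ribosome biogenesis these were NOP56 (1.40), BRIX1-1 (1.14), BRIX1-2 (1.13), NOP5 (1.09) and FIB2 (0.97), and among ribosomal proteins RPL9D (0.91), RPL23AB (0.71), RPS6 (0.57) and RPL5B (0.47). Replication and cell division gave PCNA1 (0.85), RPA70B (0.75), ORC1B (0.73), PCNA2 (0.61), HTA10 (0.91), HIS4 (0.59) and CYCA1;1 (0.51). Sugar and starch genes gave GPT2 (1.37), GBSS1 (1.26), iPGAM2 (0.68), HXK2 (0.55) and PGK (0.49). Nutrient genes gave NRT1.5 (1.61), SDI2 (1.34), APR2 (1.17), MGD2 (1.08) and NRT1.1 (0.92).

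The remaining positive values belonged to hormone, defence and stress genes: LOX3 (1.93), HSP70 (1.87), CRK13 (1.81), SHY2 (1.62), EARLI1 (1.28), AOS (1.13), EXPA5 (1.13), Hop3 (1.02) and ANT (0.70).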

How the results depend on the processing

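Depth was 13164987 to 17461274 reads per library without glucose, and the lowest with glucose was 11470134, in ein2-5 library 3. Genes near 1 CPM therefore rest on few reads, and 3 libraries a group limit every test. Counts of genes higher and lower without glucose were 6887 and 3121. They became 1514 and 512 at an absolute log2 difference of at least 1, and the lower count became 5330 after TMM scaling, 5306 in edgeR and 5167 in DESeq2. When 1 library was left out, the higher count was 5599 to 6402 and the lower count 2362 to 3264. With glucose, 5100 and 4080 genes became 1166 and 652 at that difference, and 2718 and 1516 without the 3 libraries rich in seed transcripts. The range with 1 library without glucose left out was 4888 to 5112 and 3807 to 4169. No library with glucose was left out singly, so this range cannot show how far these counts rest on 1 library. Positive and negative differences between conditions, 2606 and 1072, became 665 and 329 at that difference and 1276 and 538 without the seed-rich libraries. The negative count became 1873 after TMM, 1776 in edgeR and 1810 in DESeq2. With 1 library without glucose left out, the positive and negative counts were 1755 to 2450 and 741 to 1074. The cause was not tested, other than that TMM moved the median of all genes from 0.15 to −0.00. EIN2 had −1.13 to −1.36 with 1 library left out, and kept its call in every alternative.

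Among 158 named genes past the threshold without glucose, 2336 of 2370 values under the alternatives were on the same side of the threshold and 34 were not. The 158 had been picked as called in the main fit and by the size of their difference. High agreement was thus partly built in and does not extend to all called genes. For 65 named differences between conditions the numbers were 805 and 105 of 910. These include the fit that kept only library 1 of ein2-5 with glucose. No value changed sign. Deviations of same-numbered libraries without glucose correlated at −0.0717, −0.160 and 0.194. In each of the 4 groups, however, library 3 had the largest share of chloroplast and of mitochondrial reads. The correlations cover only the groups without glucose, and they do not settle whether same-numbered libraries belong together. With the replicate number as a block, 7213 genes were higher and 3397 lower, and none of the 158 calls was lost.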

Other observations

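Among the 6 largest positive differences between conditions were genes hardly detected in either genotype without glucose. The immune kinase FRK1 stood at 0.143, 0.172 and 0.172 CPM in Col-0 and at 0, 0 and 0.076 CPM in ein2-5 without glucose, and at 29.8, 14.9 and 23.3 CPM in Col-0 and 0.368, 0.681 and 0 CPM in ein2-5 with it. The nitrate transporter NRT2.5 was listed at 0 in all 3 Col-0 libraries without glucose, and stood at 7.32, 5.93 and 7.02 CPM in Col-0 and 0.245, 0.227 and 0 CPM in ein2-5 with glucose. The genotype differences without glucose, −0.18 for FRK1 and 0.03 for NRT2.5, did not pass the test (adjusted p = 0.52 and 0.861). The transporter ABCG8 likewise stood at 1.57, 1.89 and 2.06 CPM and 1.71, 1.73 and 1.06 CPM without glucose (−0.19, adjusted p = 0.235), and at 45.9, 44.6 and 45.8 CPM and 6.13, 6.36 and 7.24 CPM with it.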
